A study of Bos taurus with 15 samples.

Results

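Genes of lipid, fatty acid and sterol metabolism were followed in the endometrium of cows at the time when the elongating conceptus begins to attach. They were matched by the words of the annotation and then filtered on signal, with no comparison of groups in the rule. A match was any array probe, controls aside, whose description or sequence name held the words fatty acid, acyl-CoA, acyl-Coenzyme A, cholesterol, sterol, apolipoprotein, phospholipase, lipase or low density lipoprotein, with solute carriers left out. Of 15208 probes, 105 matched, and 89 of them (88 genes) gave a signal well above background on at least 3 of 15 arrays and are the members described here, out of 13164 probes that passed this filter. The tissue was caruncular endometrium, the part of the uterine lining to which the placenta attaches, from Japanese Black cows in 4 groups. NP15 and NP18 were non-pregnant cows on days 15 and 18 of the estrous cycle, with 4 arrays each. P15 and P18 were cows found pregnant on the same days, with 3 and 4 arrays. The methods count days from artificial insemination, as the first day, and tell pregnant from non-pregnant cows by whether trophoblast could be seen in the opened uterus. The ages of the cows are not given in the sources used here, and the study's methods name 4 animals per stage.

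Before the conceptus attaches, it lives on the secretions of the uterus, and lipids are part of this supply. Fatty acids are made by fatty acid synthase, lengthened by elongases, activated to acyl-CoA by synthetases, carried in the cytosol by fatty acid binding proteins, and burned by beta-oxidation in mitochondria. Cholesterol is made from acetyl-CoA or taken up in lipoproteins through receptors, and apolipoproteins are the protein part of these particles. Phospholipases A cut fatty acids such as arachidonic acid, the parent of the prostaglandins, from membrane phospholipids, whereas phospholipases C and D cleave the head group side.

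Each measurement was a probe signal, background-subtracted by the image software of the authors, and was scaled by the array's median signal, so that a value of 1 array median is the level of the middle probe. The median signal of an array ran from 315 to 838 across the 15 arrays, and the share of the 105 matched probes well above background from 78.1 to 87.6% on day 15 and from 65.7 to 76.2% on day 18. The weakest signal well above background was 0.0196 to 0.0519 array medians on day 15 and 0.0660 to 0.180 on day 18, so dim probes had less room on day 18. Of the 89 members, 64 were well above background on all arrays and 25 on 3 to 14 of them. OSBPL6, a sterol-binding protein, was just inside the filter with 3 arrays and signals of 0.0193 to 0.0824 array medians. APOA4, APOH, LIPE, LPL and LOC507201 were just outside it with 2 arrays each, their highest signals running from 0.0805 to 0.487. The other probes outside were those of APOB, APON, FABP1, FABP2, LIPF, ELOVL7, ACAA1, ACSBG2, OSBPL3 and second probes of SC5D and PLA2G4A.

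Single arrays stood apart before any comparison. Epithelial markers (KRT8, KRT19, CDH1 and EPCAM) summed to 92.6 to 112 array medians in P15 and to 102 in NP18 replicate 1, against 152 to 296 in the other 11 arrays. Trophoblast markers, 6 of the 7 listed having a probe, summed to 114, 70.2 and 509.5 array medians in P18 replicates 2, 3 and 4, to 0.520 in P18 replicate 1, and to 0.116 to 0.349 in all other arrays. Among these, CSH2 was well above background on 0 of 15 arrays. PTI went the other way and was well above background on 12 arrays, only 1 of them P18. It had 0.0886 to 0.153 array medians in P18 and 0.156 to 0.234 in NP18 (log2 difference of -0.73, adjusted p = 0.176). Smooth muscle markers summed to 9.36 to 34.4 array medians in P18 and to 34.1 to 166 in the other groups, and stromal markers to 597 to 758 and 635 to 1560. The adipocyte markers ADIPOQ and CIDEC were well above background on 0 of 15 arrays, LEP on 3 and CFD on all 15. Their sum was 4.61 to 5.98 array medians in P18 and 10.2 to 20.2 in the other groups, and CFD was lower in P18 than in NP18 (log2 difference of -1.20, adjusted p = 0.00619). FABP4, the binding protein of fat cells and a member, was well above background on 7 arrays, none of them P18, and was not called. Of the uterine markers, PGR, HOXA10 and MSX1 were well above background on all 15 arrays, whereas the 2 probes of ESR1 were so on 6 and 9 arrays and on 0 of the 4 P18 arrays.

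The probes are single strands of 60 bases, printed 5′ to 3′ as the array file gives them. Those of the members that changed with pregnancy, alone or with the day, are shown first, because each value below is the signal on one such oligonucleotide.
FABP3: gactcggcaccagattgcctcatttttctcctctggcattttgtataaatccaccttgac
ELOVL6: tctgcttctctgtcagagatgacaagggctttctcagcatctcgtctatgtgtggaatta
GPLD1: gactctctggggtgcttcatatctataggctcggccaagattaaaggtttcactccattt
OLR1: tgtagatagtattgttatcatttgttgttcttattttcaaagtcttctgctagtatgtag
PLA2G3: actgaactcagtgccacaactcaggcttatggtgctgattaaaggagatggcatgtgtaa
PNPLA2: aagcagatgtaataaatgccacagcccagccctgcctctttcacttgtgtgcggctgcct
LOC521383: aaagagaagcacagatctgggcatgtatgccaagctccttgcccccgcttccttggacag

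Sequence comparison with every other probe of the array found 2 repeat measurements. The ELOVL6 oligonucleotide is identical over all 60 bases to a second probe, annotated in the file only as a transcribed locus (BE683180). The HADHB oligonucleotide shares 51 bases, in capitals below, with a probe of the clone BP102824.
HADHB: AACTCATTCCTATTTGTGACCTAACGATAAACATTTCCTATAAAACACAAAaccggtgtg
BP102824: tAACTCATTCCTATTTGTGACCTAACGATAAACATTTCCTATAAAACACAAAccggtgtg
No other pair with a matched probe shared more than 19 bases on either strand, and pairs under 16 bases were not sought. In contrast, SC5D, an enzyme near the end of cholesterol synthesis, and PLA2G4A, the cytosolic phospholipase that releases arachidonic acid, each had 2 probes that disagreed. For each gene the first probe below was well above background on all 15 arrays and the second on 0 of 15.
SC5D, first probe: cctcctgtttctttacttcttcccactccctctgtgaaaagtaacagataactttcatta
SC5D, second probe: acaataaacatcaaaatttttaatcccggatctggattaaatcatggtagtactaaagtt
PLA2G4A, first probe: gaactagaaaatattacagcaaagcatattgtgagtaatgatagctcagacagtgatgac
PLA2G4A, second probe: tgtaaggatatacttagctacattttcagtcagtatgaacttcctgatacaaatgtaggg
The median GC content of the members was 45%, against 43.3% for all probes tested.

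Few of the members changed with pregnancy, and those that did changed mostly on day 18. A probe was called where limma's Benjamini-Hochberg adjusted p over all 13164 probes was below 0.05 and the fold change over 2. Between P15 and NP15, 1 of 89 members was called, 0 higher and 1 lower, where 0.798% of all probes were (0.349% higher and 0.448% lower). Between P18 and NP18 it was 5 members, 4 higher and 1 lower, or 5.62% of them against 5.75% of all probes (3.65 and 2.10%). From NP15 to NP18, 1 rose and 6 fell (7.87% against 7.16%, with 2.89% higher and 4.26% lower), and from P15 to P18, 8 rose and 3 fell (12.4% against 11.9%, with 7.58 and 4.31%). Day 15 and day 18 differed in the effect of pregnancy for 5 members, 4 upward and 1 downward, or 5.62% against 2.72% of all probes (2.07 and 0.653%). In each comparison of 2 groups the share of members called was thus near that of all probes. In all, 19 members were called at least once, 15 of them above background on all arrays, and 70 were never called.

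The members also moved about as much as other probes. The median size of their log2 difference was 0.31 (P15 against NP15), 0.33 (P18 against NP18), 0.50 (NP18 against NP15) and 0.47 (P18 against P15), and that of all probes was 0.34, 0.38, 0.43 and 0.50. Each scan day held a single group, so the day of scanning and the group cannot be told apart, although NP15 was scanned on 3 days. When limma was given the scan day as a random block, 0 members were called in every comparison, and 4 to 14 had an unadjusted p under 0.05. The calls of P18 against P15 moved with the scaling. After division by the 75th percentile of each array, the median of all probes shifted by -0.30 on the log2 scale in this comparison, and 5 members were called higher and 7 lower. Of all 13164 probes, 514 were then called higher and 1134 lower, against 998 and 568 after division by the array median. P-values measure the spread between these cows, and 3 or 4 arrays per group limit the precision.

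**Figure D1:**
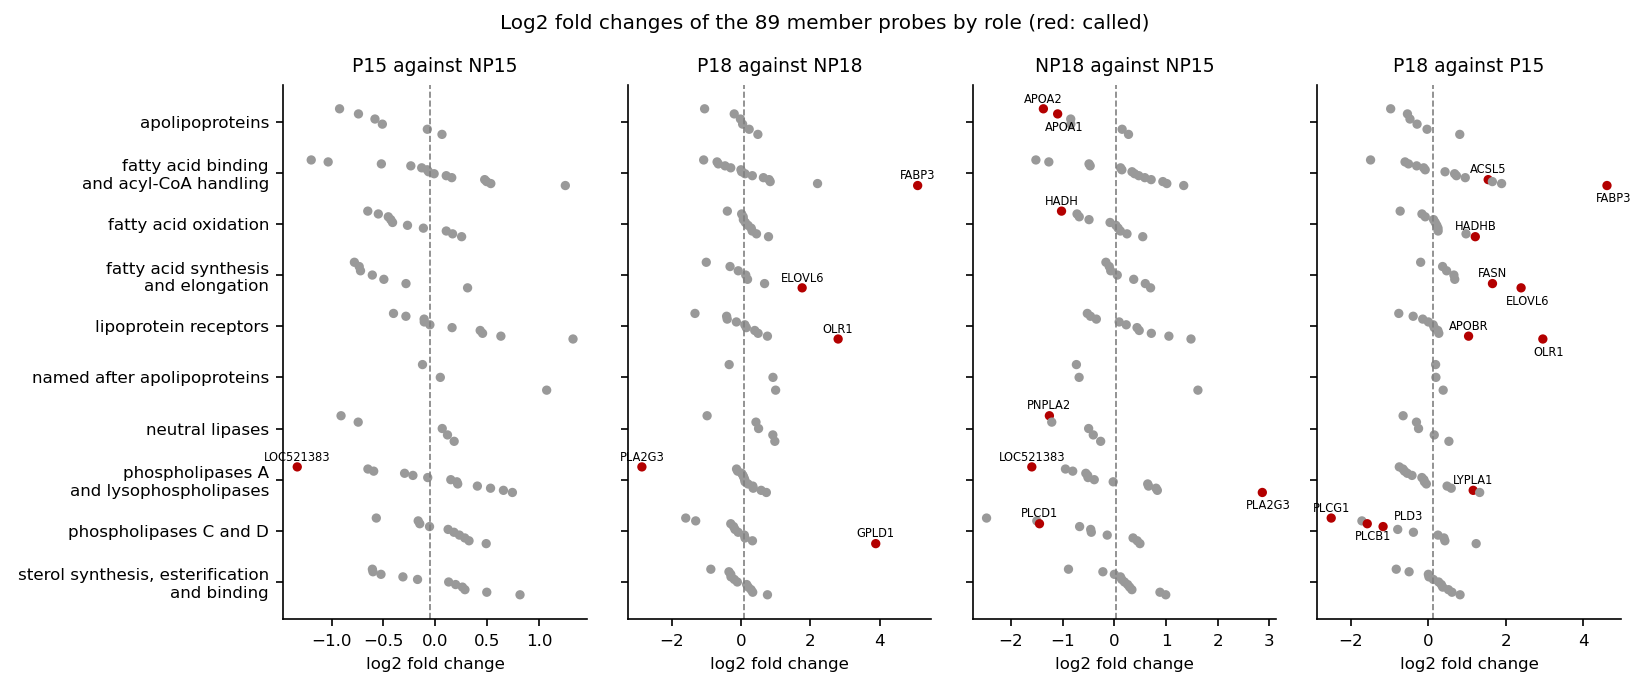
Log2 fold change (x axis) of the 89 member probes, sorted into 10 roles (y axis), in 4 comparisons of 2 groups. Red points passed adjusted p below 0.05 and a fold over 2, grey points did not, and the dashed line is the median of all 13164 probes. Most roles lie around that line, with FABP3 farthest to the right in both comparisons that involve P18.

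FABP3, the heart-type fatty acid binding protein that shuttles fatty acids through the cytosol, had the largest change of all members. Its signal was 69.4, 74.2, 150 and 118 array medians in P18 replicates 1 to 4, against 0.700, 8.96, 9.47 and 1.11 in NP18. On day 15 it was 4.44, 2.85 and 5.01 in P15 and 13.0, 2.52, 11.5 and 11.7 in NP15. All P18 arrays lay above all others, while P15 lay within the range of NP15. FABP3 was 5.10 higher on the log2 scale (SE 0.77, adjusted p = 0.00143) in P18 than in NP18, and 4.61 higher (SE 0.83, adjusted p = 0.00397) than in P15. Between P15 and NP15 the difference was -1.03 (SE 0.83, adjusted p = 0.602). On day 18 the effect of pregnancy was 6.13 larger than on day 15 (SE 1.14, adjusted p = 0.0143), a call that was lost without P15 replicate 1 (6.21, adjusted p = 0.0534). The comparison of P18 with NP18 ran from 4.42 to 5.68 when single arrays were left out and was called each time. In P18 replicate 1, IFNT2, TKDP1, PAG2, CSH2 and PTI of the trophoblast list were not well above background. TKDP4 was well above it there (0.271 array medians, against 0.00966 to 0.0849 in all arrays outside P18). This array had the lowest FABP3 signal of P18, 69.4 array medians, against 74.2, 150 and 118 in replicates 2, 3 and 4. The part of trophoblast RNA in FABP3 was not tested. In bulk tissue, fewer cells of a type and less RNA per cell cannot be told apart.

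Other carriers of fatty acids behaved differently. FABP5, the epidermal-type binding protein, had 2.34, 10.4, 10.1 and 46.5 array medians in P18 and 7.04, 5.22, 3.93 and 8.46 in NP18, groups that overlapped (log2 difference of 0.81, SE 0.63, adjusted p = 0.465). Within P18 it was highest in replicate 4 and lowest in replicate 1, the arrays with the most and the least trophoblast marker signal. Without P18 replicate 1, FABP5 was called between P18 and P15 (2.37, adjusted p = 0.0110) in place of 1.66 (adjusted p = 0.107) with it. ACSL6, a long-chain acyl-CoA synthetase chosen after its values were seen, was likewise lowest in P18 replicate 1 and highest in replicate 4, with 0.269, 0.676, 0.743 and 2.13 array medians, against 0.109 to 0.286 in NP18. With all arrays it differed by 2.21 between P18 and NP18 (adjusted p = 0.0615), and it was called without P18 replicate 1 (2.69, adjusted p = 0.0299) or without NP15 replicate 4 (2.21, adjusted p = 0.0223). The part of trophoblast RNA in these values was not tested.

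ACSL5 and ACSL4 activate long-chain fatty acids to acyl-CoA. ACSL5 had 51.4, 58.1, 78.0 and 47.6 array medians in P18, against 18.8, 21.6 and 18.9 in P15. It had 17.1, 46.2, 36.8 and 37.2 in NP18 and 22.1, 18.0, 20.3 and 36.2 in NP15. P18 lay above both P15 and NP18, and NP18 replicate 1 lay far below the rest of its group. ACSL5 rose by 1.55 from P15 to P18 (SE 0.33, adjusted p = 0.00846), and between P18 and NP18 the difference was 0.84 (SE 0.30, adjusted p = 0.111). ACSL4 was 0.96 higher in P18 than in P15 (SE 0.28, adjusted p = 0.0305), under the fold limit, and ACSL1 differed by 0.34 or less in size in each comparison of 2 groups. Of the 14 members that bind or activate fatty acids, only FABP3 and ACSL5 were called in any comparison with all arrays.

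**Figure D2:**
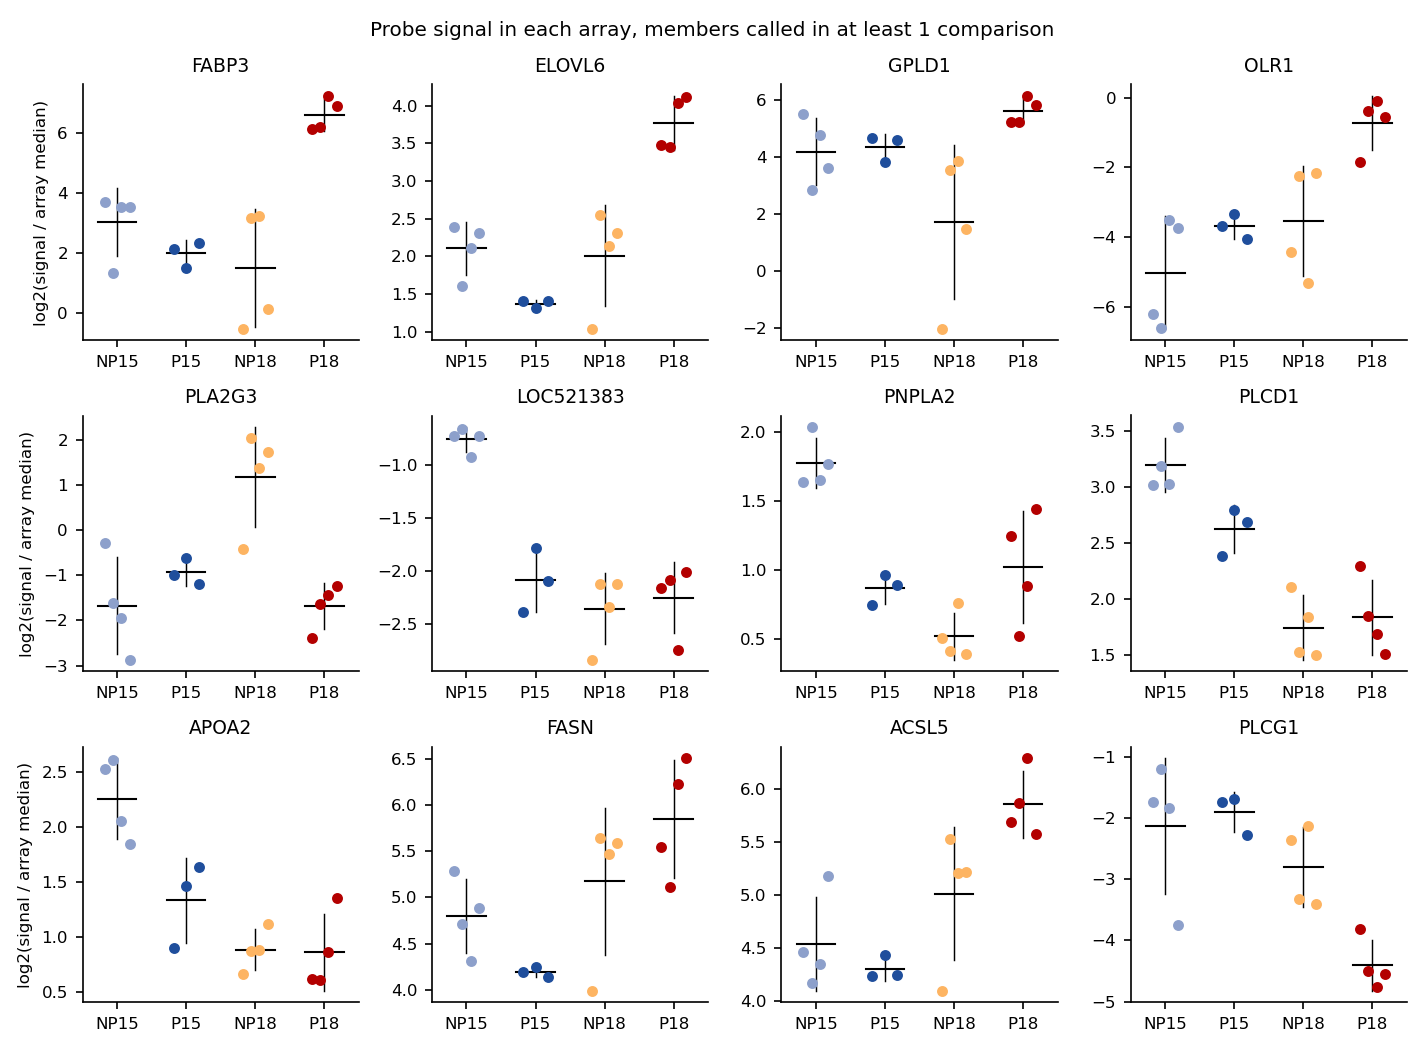
Signal of 12 called members in each array (y axis, log2 of the signal divided by the array median; x axis, group), with 1 point per array, a horizontal bar at the group mean and a vertical bar of 1 SD on each side. FABP3, ELOVL6 and OLR1 have all 4 P18 arrays above every other array, PLA2G3 has 3 of the 4 NP18 arrays above all others, and LOC521383 has all 4 NP15 arrays above all others.

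ELOVL6 lengthens the products of fatty acid synthase, and its probe followed the pattern of FABP3 at a smaller size. It had 11.2, 10.9, 16.4 and 17.4 array medians in P18 and 2.06, 5.84, 4.39 and 4.98 in NP18. On day 15 it had 2.65, 2.48 and 2.65 in P15 and 5.26, 3.06, 4.32 and 4.97 in NP15. The P18 arrays were above all others and the P15 arrays below all of NP15. ELOVL6 was 1.76 higher in P18 than in NP18 (SE 0.30, adjusted p = 0.00337) and 2.40 higher than in P15 (SE 0.33, adjusted p = 0.000859). The 2 days differed in the effect of pregnancy by 2.50 (SE 0.45, adjusted p = 0.0142), and all 3 calls held when any single array was left out. The identical second oligonucleotide gave 1.77, 2.41 and 2.53 for the same 3 contrasts, all called.

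FASN, fatty acid synthase, had 46.8, 34.6, 75.1 and 91.0 array medians in P18, against 18.2, 19.0 and 17.6 in P15. In NP18 it had 15.9, 49.9, 44.3 and 48.2, and in NP15 39.0, 26.3, 19.9 and 29.5. P15 lay below NP15 and P18 in every array, and NP18 replicate 1 was lower than all of P15. FASN rose by 1.66 from P15 to P18 (SE 0.41, adjusted p = 0.0160), but the call was lost when any of the P15 arrays was left out (adjusted p of up to 0.0598). Between P18 and NP18 the difference was 0.68 (SE 0.38, adjusted p = 0.295). The remaining 5 members of fatty acid synthesis and elongation, among them ELOVL1 with 24.6 to 51.7 array medians, were not called, and the 2 probes of ELOVL4 were above background on 15 and 6 arrays.

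HADHA and HADHB form the trifunctional protein of beta-oxidation, and HADH and ACADVL are other enzymes of fatty acid oxidation. HADHB had 7.08, 10.2, 11.7 and 9.22 array medians in P18 and 4.13, 4.46 and 3.59 in P15, and rose by 1.22 (SE 0.30, adjusted p = 0.0164) with no overlap. The BP102824 probe gave 1.23 (adjusted p = 0.0127). The HADHB call was lost without P15 replicate 1 or 3 (adjusted p of up to 0.0709) and after division by the 75th percentile (0.92). HADHA, its partner subunit, differed by -0.08 in this comparison (SE 0.26, adjusted p = 0.870). Between P18 and NP18, HADHB differed by 0.015 (SE 0.28, adjusted p = 0.982), with overlap. HADH had 1.56, 1.53, 2.09 and 2.29 array medians in NP15 and 1.52, 0.954, 0.727 and 0.635 in NP18, and fell by 1.02 (SE 0.25, adjusted p = 0.0222). Leaving out NP15 replicate 3 or 4, or NP18 replicate 3 or 4, ended that call (-0.85 at the smallest). Without NP18 replicate 1, HADH was higher in P18 (1.40 to 1.74 array medians) than in the other NP18 arrays, by 1.04 (adjusted p = 0.0109), in place of 0.79 (adjusted p = 0.0772). Of the 10 oxidation members, 3 were higher and 7 lower in P15 than in NP15 by their estimates, with none called by limma. The median of all probes in this comparison was itself -0.06. Of all 89 members, 13 (14.6%) had an unadjusted p under 0.05, against 14.9% of all probes.

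Epithelial markers moved with several of these genes. Between P15 and P18 their sums did not overlap (92.6 to 112 and 198 to 296 array medians), with EPCAM higher in P18 by 1.45 (adjusted p = 0.0143), CDH1 lower (log2 difference of -2.89, adjusted p = 0.0192), and KRT8 and KRT19 not past the test. The arrays with the lowest epithelial sums, P15 and NP18 replicate 1, were also the lowest 4 arrays for FASN and for ELOVL6. The part of epithelial content in these rises was not tested.

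**Figure D3:**
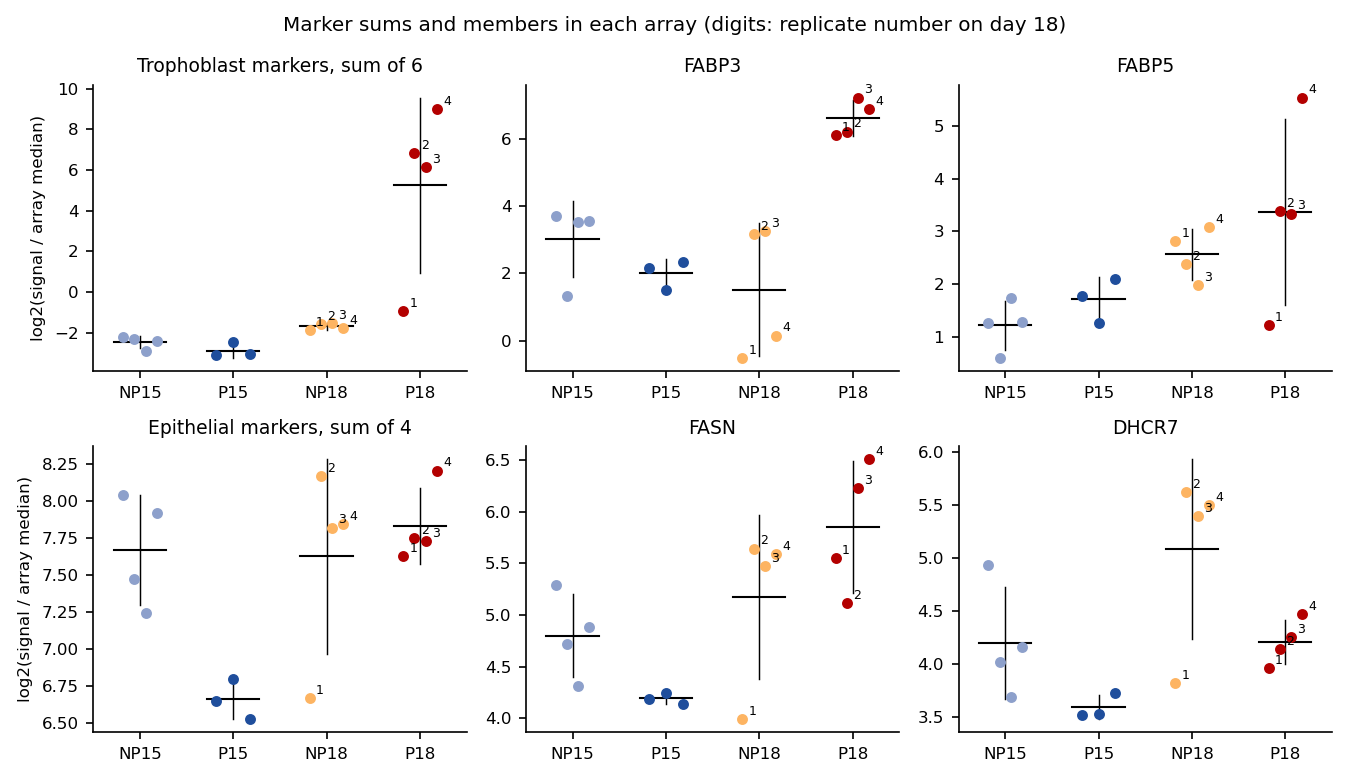
Summed signal of trophoblast and epithelial markers and the signals of 4 members in each array (y axis, log2 of the signal or sum in array medians; x axis, group), with group mean and 1 SD and with replicate numbers printed on day 18. P18 replicate 1 is the lowest P18 array for trophoblast markers, FABP5 and FABP3 (69.4 array medians), and NP18 replicate 1 is low for epithelial markers, FASN and DHCR7.

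Among the phospholipases A, PLA2G3 rose and LOC521383 fell from day 15 to day 18 of the cycle. PLA2G3, a secreted phospholipase, had 0.749, 4.16, 2.61 and 3.33 array medians in NP18, against 0.190, 0.320, 0.368 and 0.426 in P18. On day 15 it had 0.828, 0.328, 0.261 and 0.137 in NP15 and 0.503, 0.659 and 0.435 in P15. NP18 lay above P18 throughout, but its replicate 1 fell within the range of NP15. PLA2G3 rose by 2.86 from NP15 to NP18 (SE 0.55, adjusted p = 0.00649), and in P18 it was lower than in NP18 (log2 difference of -2.87, SE 0.55, adjusted p = 0.00671). Its effect of pregnancy on day 18 minus that on day 15 was -3.61 (SE 0.80, adjusted p = 0.0308), which was lost without any P15 array, NP15 replicate 2, NP18 replicate 3 or 4, or P18 replicate 1 or 2 (-3.21 to -4.14 over all single arrays).

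LOC521383, described in the file as similar to PLA2G2A, a secreted phospholipase of inflammation, was the member called between P15 and NP15. It had 0.606, 0.634, 0.526 and 0.604 array medians in NP15 and 0.191, 0.290 and 0.235 in P15. On day 18 it had 0.140, 0.229, 0.198 and 0.230 in NP18 and 0.224, 0.236, 0.149 and 0.248 in P18. NP15 was above every other array, and the other 3 groups overlapped. LOC521383 was lower in P15 than in NP15 (log2 difference of -1.33, SE 0.24, adjusted p = 0.0246) and fell by 1.60 from NP15 to NP18 (SE 0.23, adjusted p = 0.00110). The first call was lost without NP15 replicate 1 or 2 or any P15 array (adjusted p of up to 0.182, log2 difference of -1.18 to -1.48), and the second held without any single array. Between the days, the effect of pregnancy on it differed by 1.43 (SE 0.33, adjusted p = 0.0362), lost without 9 of the 15 arrays in turn (1.27 to 1.60), namely all of P15, NP15 replicates 1 and 2, NP18 replicate 3 and P18 replicates 1, 2 and 4.

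The other phospholipases A were steadier. LYPLA1, a lysophospholipase chosen for its signal, had 10.7, 12.5 and 10.1 array medians in P15 and 17.5, 24.1, 30.2 and 29.3 in P18 and rose by 1.16 (SE 0.28, adjusted p = 0.0151), a call lost without P15 replicate 1 or 3 (adjusted p of up to 0.0653) and after division by the 75th percentile (0.86). Between P18 and NP18 LYPLA1 differed by 0.11 (SE 0.26, adjusted p = 0.833), and from NP15 to NP18 by 0.83 (SE 0.26, adjusted p = 0.0554), neither called. PLA2G4A, by its first probe, had 0.190 to 0.764 array medians on day 18 and 0.263 to 2.05 on day 15 and was not called in any comparison. PLA2G7, which inactivates platelet-activating factor, had 3.49 to 12.9 array medians and was not called. Of the 13 members in this role, 1 was called lower between P15 and NP15, 1 lower between P18 and NP18, 1 in each direction from NP15 to NP18, and 1 higher from P15 to P18.

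GPLD1, a phospholipase D that releases proteins from their glycosylphosphatidylinositol anchor, had the second largest log2 difference of the members between P18 and NP18. It had 37.5, 36.8, 69.7 and 55.8 array medians in P18 and 0.244, 11.5, 14.4 and 2.75 in NP18. On day 15 it had 24.9, 14.2 and 24.0 in P15 and 44.6, 7.19, 26.9 and 12.3 in NP15. NP18 spread widely and lay below P18 without overlap, but the P18 arrays overlapped those of NP15. GPLD1 was 3.89 higher in P18 than in NP18 (SE 0.98, adjusted p = 0.0288). The call was lost without NP18 replicate 4 or P18 replicate 2, 3 or 4 (adjusted p of up to 0.0842) and with the slide as a random block (0.0547), and without NP18 replicate 1 the difference was 2.64 (adjusted p = 0.0193). The difference between the days was 3.71 (SE 1.44, adjusted p = 0.174). From P15 to P18 GPLD1 differed by 1.24 (SE 1.05, adjusted p = 0.439), and from NP15 to NP18 by -2.47 (SE 0.98, adjusted p = 0.109), neither called. P18 replicate 1, low in trophoblast markers, had 37.5 array medians of GPLD1, and replicates 2, 3 and 4 had 36.8, 69.7 and 55.8. The part of trophoblast RNA in GPLD1 was not tested.

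Phospholipases C, which turn over inositol lipids downstream of receptors, were called lower on day 18 in 3 cases. PLCD1 had 8.13, 9.12, 8.17 and 11.6 array medians in NP15 and 4.32, 2.89, 3.58 and 2.84 in NP18, and fell by 1.45 (SE 0.22, adjusted p = 0.00182) with no overlap, in every run that left out 1 array. From P15 to P18 the difference was smaller (log2 difference of -0.79, SE 0.24, adjusted p = 0.0384), under the fold limit. PLCG1 had 0.300, 0.308 and 0.207 array medians in P15 and was not well above background in any P18 array. By its measured signals limma called it lower in P18 (adjusted p = 0.00665), and the bound on the fall was at least 2.09-fold. PLCB1 had 0.134, 0.222 and 0.138 in P15 and was likewise not well above background in any P18 array. It too was called lower by its measured signals (adjusted p = 0.0233), with a bound of at least 1.25-fold. These adjusted p-values belong to the measured signals and not to the bounds. Such a bound compares the mean of P15 with that of P18 after raising each P18 signal to the array's weakest well-measured probe where it was dimmer. The PLCB1 call was lost without any P15 array or P18 replicate 2, 3 or 4 (adjusted p of up to 0.0973), and normexp background correction or raising dim signals to the weakest measured one ended both calls (-1.06 and adjusted p = 0.112 for PLCG1, -0.33 and 0.488 for PLCB1, in the latter case). PLD3 had 23.4, 18.9 and 30.1 array medians in P15 and 10.0, 11.1, 11.3 and 9.89 in P18 and fell by 1.17 (SE 0.32, adjusted p = 0.0262), a call lost without P15 replicate 1 or 3 or P18 replicate 2, 3 or 4 (adjusted p of up to 0.116). Between P18 and NP18 PLD3 differed by -0.22 (SE 0.30, adjusted p = 0.700). Smooth muscle markers were lower in P18 than in P15 too, with log2 differences of -2.80 for ACTA2 (adjusted p = 0.0136) and -1.88 for CNN1 (adjusted p = 0.0320). So were the stromal COL1A1 (-1.67, adjusted p = 0.0161), COL3A1 (-1.13, adjusted p = 0.00910) and VIM (-1.02, adjusted p = 0.0403) and the adipocyte marker CFD (-1.67, adjusted p = 0.00118). The stromal DCN (-0.44, adjusted p = 0.288) and LUM (-0.22, adjusted p = 0.751) did not pass the test. Of the other adipocyte markers, ADIPOQ and CIDEC were well above background on 0 of 15 arrays and LEP on 0 of the P18 arrays. The part of these tissues in these falls was not tested.

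Of the 10 lipoprotein receptors, OLR1, the lectin-like receptor for oxidized low density lipoprotein, stood out. OLR1 had 0.280, 0.760, 0.927 and 0.680 array medians in P18, all well above background, and 0.0472, 0.212, 0.0254 and 0.224 in NP18, where 2 of 4 arrays were. P15 had 0.0785, 0.0996 and 0.0602 and NP15 had 0.0135, 0.0105, 0.0874 and 0.0753. Every P18 array was above every other array, with replicate 1 the lowest of the group. By these signals OLR1 was 2.80 higher in P18 than in NP18 (SE 0.78, adjusted p = 0.0444) and 2.96 higher than in P15 (SE 0.85, adjusted p = 0.0298). With each signal not well above background raised to its array's weakest measured one, the first difference was 2.15 (SE 0.43, adjusted p = 0.00798). That step narrows the spread of dim signals by its construction, so its smaller p is not stronger evidence. The first call was lost without any P15 array, NP18 replicate 1 or 3, or P18 replicate 2, 3 or 4 (2.21 to 3.26, adjusted p of up to 0.132) and with the slide as a random block (0.0722), and the second without any P15 array or P18 replicate 2, 3 or 4 (2.75 to 3.33, adjusted p of up to 0.103).

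VLDLR, which takes up triglyceride-rich lipoproteins (8.84 to 45.7 array medians), and LRP10 (16.5 to 45.5) were not called, and LRP8 was well above background on 4 arrays, all of day 15. APOBR, a receptor for apolipoprotein B that was named after its values were seen, rose by 1.04 from P15 (1.14 to 1.18 array medians) to P18 (1.54 to 3.49). Its adjusted p was 0.0374, and the call ended without any P15 array or P18 replicate 2, 3 or 4 (adjusted p of up to 0.108) and after division by the 75th percentile (0.75).

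Of the 6 apolipoproteins, APOA1 and APOA2 were lower on day 18 of the cycle than on day 15. APOA1, the main protein of high density lipoprotein, had 59.6, 48.0, 44.7 and 107 array medians in NP15 and 39.6, 27.7, 34.0 and 17.5 in NP18 and fell by 1.10 (SE 0.31, adjusted p = 0.0385). APOA2, its partner on the same particles, had 5.75, 6.10, 4.15 and 3.59 in NP15 and 1.59, 1.83, 1.84 and 2.17 in NP18 and fell by 1.37 (SE 0.25, adjusted p = 0.00463). The groups did not overlap for either gene. The APOA2 call held without any single array, and the APOA1 call was lost without 9 of 15 in turn (-0.83 to -1.26, adjusted p of up to 0.109), namely NP15 replicates 1, 2 and 4, P15 replicate 2, NP18 replicates 2, 3 and 4 and P18 replicates 2 and 4. APOA2 was also below NP15 in all P15 arrays (1.87, 2.76 and 3.11 array medians), without passing the test (log2 difference of -0.92, SE 0.27, adjusted p = 0.130). APOE, which carries lipids between cells, had 63.0, 47.1, 79.5 and 91.7 in P18 and 80.7, 189, 228 and 117 in NP18, a difference of -1.06 (SE 0.43, adjusted p = 0.153). From NP15 to NP18 the other 4 were not called, with APOC3 at -0.84 (adjusted p = 0.0230, under the fold limit), APOC4 at -0.84 (adjusted p = 0.0898), APOE at 0.15 and APOM at 0.27, and the median of the 6 was -0.84 against 0.02 for all probes.

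PNPLA2, the lipase that starts the breakdown of stored triglyceride, was the neutral lipase that changed. It had 3.11, 4.10, 3.14 and 3.41 array medians in NP15, 1.67, 1.95 and 1.86 in P15, 1.42, 1.33, 1.69 and 1.31 in NP18, and 2.37, 1.43, 1.84 and 2.71 in P18. NP15 was above all other arrays. PNPLA2 fell by 1.26 from NP15 to NP18 (SE 0.21, adjusted p = 0.00341), which held without any single array, and between P15 and NP15 the difference was -0.91 (SE 0.23, adjusted p = 0.0823). For PNPLA2 the effect of pregnancy also differed between the days, by 1.41 (SE 0.31, adjusted p = 0.0295), lost without NP15 replicate 2, any P15 array or P18 replicate 1 or 4 (1.27 to 1.58, adjusted p of up to 0.104) and after division by the 75th percentile (1.24). MGLL, which completes triglyceride breakdown, had 0.0367 to 0.329 array medians and was not called.

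**Figure D4:**
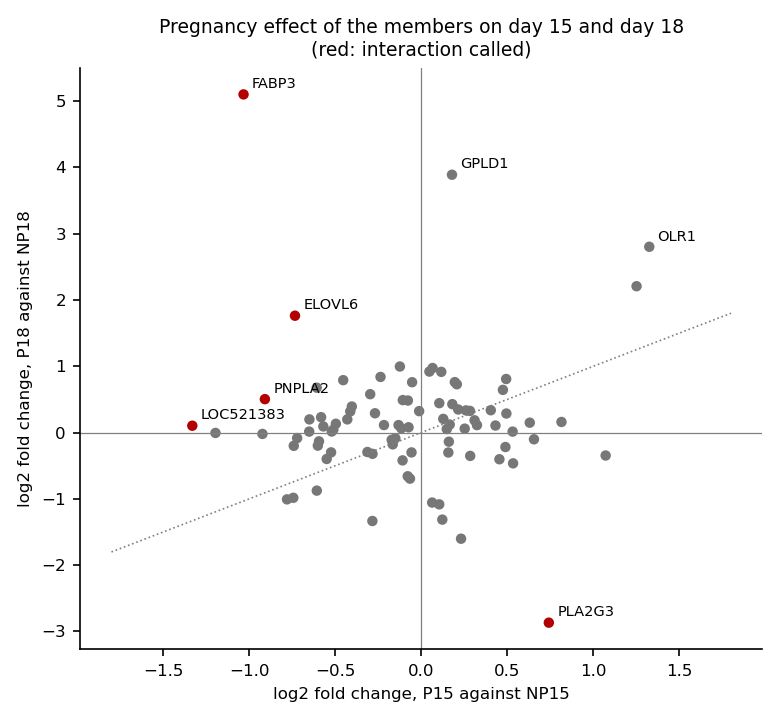
Log2 fold change of each of the 89 members with pregnancy on day 15 (x axis, P15 against NP15) and on day 18 (y axis, P18 against NP18), with equal effects on the dotted line. The 5 red points passed the test of the difference between the days, and FABP3 combines -1.03 on day 15 with 5.10 on day 18.

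Of 11 members for sterol synthesis, esterification and binding, 0 were called by limma in each comparison. In DHCR7, which makes the last step of cholesterol synthesis, NP18 held 14.1, 49.1, 42.0 and 45.3 array medians and P18 15.6, 17.6, 19.1 and 22.1. NP15 held 30.6, 16.2, 12.9 and 17.8, and P15 11.5, 11.5 and 13.2. NP18 replicates 2 to 4 were above all other arrays and replicate 1 was among the low ones. With all arrays DHCR7 differed by -0.88 between P18 and NP18 (SE 0.36, adjusted p = 0.154) and by 0.88 between NP18 and NP15 (SE 0.36, adjusted p = 0.119). Without NP18 replicate 1 these were -1.30 (adjusted p = 0.00882) and 1.30 (adjusted p = 0.00635), both called. SOAT1, which esterifies cholesterol for storage, had 0.705 to 1.29 array medians on day 18, and OSBPL2, an oxysterol-binding protein, had 14.3 to 23.7 over all arrays, and neither was called.

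The calls of other members also moved when NP18 replicate 1 was left out. Without it, 12 members were called between NP18 and NP15 in place of 7, and 8 between P18 and NP18 in place of 5. The share of all probes called in these runs is not given here, so the gain cannot be read as particular to the members. Added ones, named for this reason after their values were seen, were ACOT7, an acyl-CoA thioesterase (1.43 higher in NP18 than in NP15, adjusted p = 0.00657), DHCR7, the falls of FABP7 (-1.14) and LCAT (-1.07) with the day, and PLCD4, which was well above background on 1 NP18 array only. Between P18 and NP18 they included ACOT7 (-1.07), DHCR7 (-1.30) and HADH (1.04), and OLR1 was lost. The epithelial sum of this array was 102 array medians, against 226 to 289 in the other NP18 arrays, and its part in these values was not tested.

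Genes of the same pathways that were not members were read from 10 lists of lipid genes. They added 61 probes of 58 genes, of which limma called 0 between P15 and NP15. The lists had 2 higher and 3 lower between P18 and NP18, where 3.65% of all probes were higher and 2.10% lower. From NP15 to NP18 they had 2 higher and 4 lower (2.89 and 4.26% of all probes). From P15 to P18 they had 8 higher and 1 lower (7.58 and 4.31%). In the cholesterol synthesis list, 14 probes were tested, 12 of them not members, and 5 of these were called higher from P15 to P18 with none lower, where 7.58% of all probes were called higher. They were HMGCS1, the entry enzyme of the pathway (1.20, adjusted p = 0.0401), both probes of FDFT1 (1.15 and 1.17), NSDHL (1.33) and PMVK (1.68). After division by the 75th percentile of each array only PMVK was called (1.38, adjusted p = 0.0234), with HMGCS1 at 0.91 and the FDFT1 probes at 0.85 and 0.87. With pregnancy the median of this list was -0.59 on day 15 and -0.43 on day 18, against -0.06 and 0.07 for all probes. Between P18 and NP18, 0 of its probes were called higher and 1 lower, and from NP15 to NP18 2 were called higher. HMGCS1 had 17.3, 50.2, 37.6 and 45.7 array medians in NP18 and 20.6, 26.1, 30.2 and 26.4 in P18, so NP18 replicate 1 was again the lowest of its group. SCD, which desaturates the products of FASN and ELOVL6, rose by 2.46 from P15 to P18 (adjusted p = 0.0351), with 7.13 array medians in NP18 replicate 1 and 54.0 to 90.0 in the other NP18 arrays. TM7SF2, a sterol reductase, was lower in P18 than in NP18 (log2 difference of -1.90, adjusted p = 0.0443). NR1H2, a nuclear receptor for oxysterols, fell by 1.28 from P15 to P18 and by 1.26 from NP15 to NP18 (adjusted p = 0.0178 and 0.0182). In the list of fatty acid synthesis, elongation and desaturation, 3 of 12 probes rose from P15 to P18, with a median of 0.42 against 0.12 for all probes, and the 2 that are members are ELOVL6 and FASN.

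Members named after apolipoproteins were APOBEC2, APOBEC3F and APOLD1, which act on nucleic acids or in the endothelium and not in lipid transport. APOLD1 had 6.45, 7.70, 7.93 and 1.58 array medians in NP15 and 20.2, 10.0, 13.2 and 20.5 in NP18, a difference of 1.62 (SE 0.50, adjusted p = 0.0509) that was called without NP15 replicate 3 (1.84, adjusted p = 0.0438) or P18 replicate 4 (1.62, adjusted p = 0.0469). With all arrays, limma called 0 of the 3 in each comparison.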

How the data were processed

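RNA of 15 cows was hybridized by the authors to one-color Agilent arrays of 15744 spots. The deposited scanner tables, made with Agilent Feature Extraction 9.5, hold each spot's intensity on a linear scale after background subtraction, with no scaling between arrays. The authors also deposited log2 values of the same arrays, scaled in another way, which served as an alternative. Members and gene lists were chosen with earlier results of these data known. Intensities were divided by the array median over 15208 probes, as in the methods of the study, and log2 was taken. Spots with outlier flags were left out (0 member spots had a flag or were saturated). The 13164 probes above background on at least 3 arrays were fitted with limma 3.58.1 in R 4.3.3, with a mean for each of the 4 groups. The methods name a t-test, which was an alternative. The procedure was tested on simulated data. Other steps ran in Python 3.11.15 (pandas 2.3.3 and numpy 2.4.6), with plots by matplotlib 3.10.9.

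Gene symbols came from the files, and 74 members took theirs from RefSeq (ARS-UCD2.0), which served for names only. Named members were the 6 largest rises and falls called in each comparison, all members called for the interaction, the 2 brightest of each role, and members on a list of well-known lipid genes. The sequences are those of the array file, which names no genome build, and no genome was used here. Alternatives were other scalings (75th percentile, quantile, normexp with an offset of 50, the authors' log2 table), other filters, array weights, the 2 groups compared alone, a block for slide, scan day or replicate number, no limit on the fold, 1 probe per gene, the t-test, leaving out each array, and, added after seeing the data, dim signals raised to a floor. The 9 slides held 1 group each. Results for 2 of the members are not reported here.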

Additional observations from a re-analysis of the deposited data

Results flagged for a closer look

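The 114 groups of 4 arrays of the 38 named members were searched for an array far from the other 3, of which chance gives about 1 in 20, and 5 were found. FABP3 was lowest in NP15 replicate 2, with 2.52 array medians against 11.5 to 13.0 in the other NP15 arrays. FASN and DHCR7 were lowest in NP18 replicate 1, with 15.9 (others 44.3 to 49.9) and 14.1 (others 42.0 to 49.1) array medians. APOBEC2 was highest in NP15 replicate 3, with 0.470 against 0.0983 to 0.121, and APOLD1 lowest in NP15 replicate 4, with 1.58 against 6.45 to 7.93. All 5 signals were well above background.

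The effect of pregnancy on day 18 differed from that on day 15, by limma's test of the difference, for 5 members. The log2 difference of effects was 6.13 for FABP3, 2.50 for ELOVL6, 1.43 for LOC521383, 1.41 for PNPLA2 and -3.61 for PLA2G3.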

How the results depend on the processing

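Of the 28 called values of named members, 694 of 846 values under the alternatives kept their call, 152 kept their direction without it and 0 reversed, and 8 of the 28 held under every alternative other than the scan day. The counts below are of members called and stand, where 1 number is given per comparison, in the order P15 against NP15, P18 against NP18, NP18 against NP15, P18 against P15 and interaction, whose main counts were 1, 5, 7, 11 and 5. A random block for the scan day left 0 called in each comparison (4, 6, 14, 13 and 6 at an unadjusted p under 0.05). Array weights gave 3, 14 and, for the interaction, 8, against 1, 5 and 5. The slide as a random block gave 3 for P18 against NP18 and 2 for the interaction, where normexp gave 10 and the 75th percentile and the authors' log2 values gave 3 each. Of all 13164 probes, normexp called 1329 for the interaction and those 2 scalings 280 each, against 358 in the main run. Quantile normalization gave 8 for P18 against NP18, with 822 of all probes against 757. For the other alternatives in this section the share of all probes is not given here. Their counts cannot be read as particular to the members. The 2 groups alone gave 0 for P15 against NP15 (9 at an unadjusted p under 0.05) and 4 for NP18 against NP15, and the filter on all 15 arrays 0 for P15 against NP15 (11). Without the filter on dim probes there were 13 for NP18 against NP15 and 20 for P18 against P15. The methods' t-test gave 2, 9 and 11 unadjusted in the first 3 comparisons, and 0, 0 and 4 after adjustment (11, 15 and 19 at an unadjusted p under 0.05). Raising dim signals to the weakest measured one of their array, an alternative added after seeing the data, gave 11 for NP18 against NP15 and 18 for P18 against P15, and by its construction lifts dim probes where this floor is higher, as on day 18. Leaving out 1 array gave 0 to 1, 3 to 8, 5 to 12, 4 to 15 and 1 to 6, the lowest without P15 replicate 1 or 3 for P18 against P15 (highest without P18 replicate 1) and without P15 replicate 1 for the interaction.

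Same-numbered arrays did not deviate together (r of -0.26 to 0.30 over 21 pairs, 3 of them over 0.1), so the numbers share only a name. With a replicate block limma called 0 members for P15 against NP15 (6 at an unadjusted p under 0.05) and 2 for the interaction, and 6, 6 and 8 in the others.

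Dim members were limited by signal over background, most on day 18.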
